A study of Mus musculus with 4 samples.

Results

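The proteasome subunit genes of the mouse were examined in an ATAC-seq study of pachytene spermatocytes, with cells of a Znhit1 knockout set against control cells. Members were taken by name, as every protein-coding gene whose whole symbol is Psm followed by 1 letter from a to g, a number and at most 1 further character. This gave 49 of the 21883 protein-coding genes on chromosomes 1 to 19, X and Y. The labels give 2 Znhit1_KO and 2 CTRL libraries from testis with the tag P35, and name neither the allele, a Cre driver nor the strain. Of these, 1 peak list per genotype was analysed, recorded for the first library of each, and both lists give positions only. With 1 list per genotype there is no replicate check, so no p-value is given for any difference between the lists.

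ATAC-seq uses the transposase Tn5 to cut and tag open chromatin, and a peak is an interval where such cuts pile up. ZNHIT1 belongs to the SRCAP complex, which places the histone variant H2A.Z into nucleosomes near gene starts. The proteasome is the protease that degrades proteins tagged with ubiquitin. Its barrel, the 20S core, is built of alpha subunits (Psma genes) and beta subunits (Psmb genes). The 19S regulatory particle, built of ATPases (Psmc) and non-ATPase subunits (Psmd), binds, unfolds and feeds in the substrate. Activators (Psme) and an inhibitor (Psmf1) also bind the core, and the Psmg genes encode chaperones that assemble it. Male germ cells are known for a core of their own, the spermatoproteasome, in which PSMA8 takes the place of PSMA7. Cells that answer to interferon instead make immunoproteasomes with PSMB8, PSMB9 and PSMB10.

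The knockout list held 21004 separate intervals and the control list 15376, with read depth not given in the sources used here. A longer list can hold more peaks at any gene set, which limits every count below. Znhit1 itself was in both lists, which does not check the genotype. As a check of the cell type, 8 of 10 pachytene spermatocyte markers were listed at a gene end for both genotypes, such as Mybl1 and Hormad1. That is 80.0%, against 28.6% of all protein-coding genes. The 8 include Ldhc, whose peaks of 168 bp in the knockout list and 486 bp in the control list did not overlap. None of 6 spermatid, 6 Sertoli cell and 5 Leydig cell markers had a gene-end peak in either list. Of all protein-coding genes 57.0% had none either, so this absence is a weak check. Of 6 spermatogonial markers, 1 was in the knockout list alone (Stra8) and 2 were in the control list alone (Id4 and Dmrt1). Their part in the results below was not tested.

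Proteasome genes listed at a gene end in both genotypes outnumbered those listed in 1 alone and those in neither. A gene counted as listed when a peak came within 1 kb of the lower or the upper coordinate of the gene, which includes its 3' end. Of the 49 members, 26 were in both lists (53.1%, against 28.6% of all protein-coding genes), and 8 were in the knockout list alone (16.3%, against 9.81%). A further 3 were in the control list alone (6.12%, against 4.66%), and 12 were in neither (24.5%, against 57%). Among listed genes, 70.3% of the 37 proteasome genes and 66.4% of all 9418 genes were in both lists. That order turned with only intervals on at least 2 lines, where 12 members were in both lists (42.9% of listed members, against 52.7% of listed genes), and with RefSeq starts only (68.8%, against 69.2%). None of these differences was tested, since a count over genes named alike is not a replicate. The Psmb10 peak, 939 bp from a gene end, was counted. Among the 12 members in neither list, the nearest interval was a control peak 1593 bp from an end of Psma6.

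**Figure D1:**
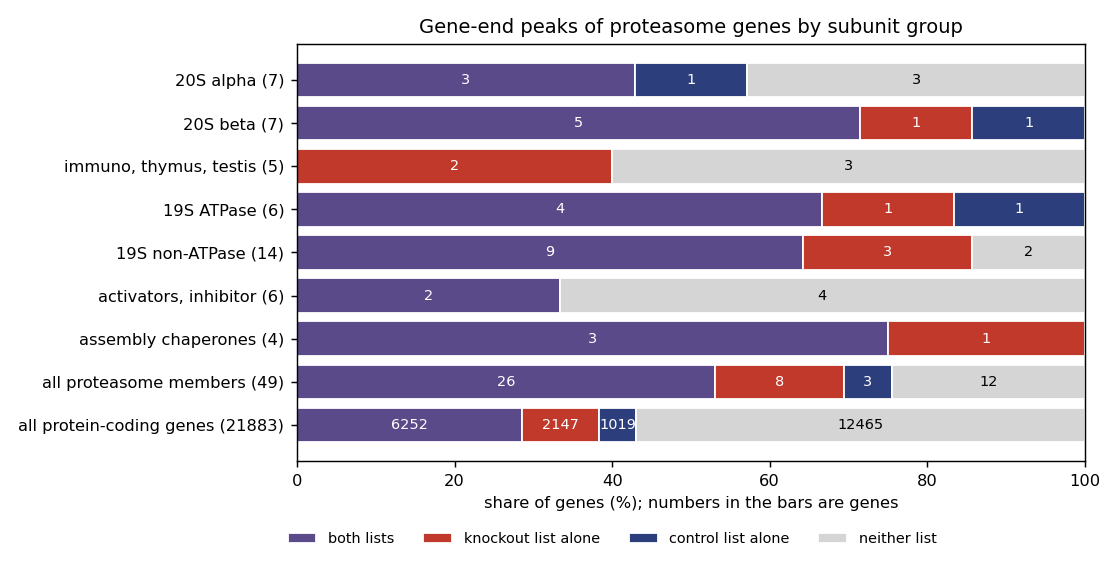
Each bar divides 1 group of proteasome genes, all 49 members or all 21883 protein-coding genes by their listing (both lists, knockout alone, control alone, neither), as a percentage of the group. The numbers in the bars are genes. The immunoproteasome, thymus and testis group, with 5 genes, is the group with no gene in both lists, where 28.6% of all genes were.

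The constitutive core genes were listed in most cases (78.6% in at least 1 list, against 43.0% of all protein-coding genes). All 7 beta genes had a peak in at least 1 list, with 5 in both (71.4%, against 28.6%). Of the 7 alpha genes, 3 were in both lists (42.9%, against 28.6%), and 1 (Psma4) was listed for the control only (14.3%, against 4.66%). The remaining 3 had none (42.9%, against 57.0%). Groups this small are not read for a trait of their own. Psma1 had peaks of 924 bp in the knockout list and 893 bp in the control list, and Psma2 of 877 bp in the knockout list and 647 bp in the control list. Psma5 had 774 bp in the knockout list and 361 bp in the control list. The knockout peak of Psma5 was 2.14 times as wide as its control peak. The Psma2 peak also reached the end of Mrpl32, a mitochondrial ribosomal protein gene, and cannot be given to 1 of the pair.

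The 3 alpha genes counted in neither list included 2 with a peak at a start that lies inside the gene's outermost coordinates. RefSeq places the start of Psma3 at 70974623 on chromosome 12 (mm10, 1-based), which peaks of 762 bp in the knockout list and 972 bp in the control list covered. Psma6 has 2 starts, and the downstream one was covered by peaks of 479 bp in the knockout list and 444 bp in the control list. Psma7, the alpha subunit that PSMA8 replaces, had no peak near its start on chromosome 2, the nearest lying 16846 bp away in the knockout list and 16831 bp away in the control list. So Psma7 was the only one of the 7 constitutive alpha genes with no peak at a gene end or a RefSeq start in either list.

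The 3 genes of the proteolytic sites differed in their listing. Psmb6, the caspase-like subunit, had peaks of 336 bp in the knockout list and 363 bp in the control list. Psmb7, the trypsin-like subunit, had 860 bp in the knockout list and 497 bp in the control list. Psmb5, the chymotrypsin-like subunit and the main target of proteasome inhibitors, had no peak in the knockout list and one of 549 bp in the control list (chromosome 14, 54617545 to 54618093), which covered its start. The nearest knockout interval lay 10436 bp from an end of Psmb5. Among the structural beta genes, Psmb1 had 405 bp in the knockout list and 503 bp in the control list, and Psmb2 had 607 bp and Psmb3 514 bp in the knockout list, against 561 bp and 533 bp in the control list. Psmb4 had 297 bp in the knockout list (chromosome 3, 94886521 to 94886817) and none in the control list.

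None of the 5 tissue-specific core genes was in both lists, where 28.6% of all protein-coding genes were. In the knockout list alone were 2 (40.0%, against 9.81%), and 3 were in neither (60.0%, against 57.0%). With 5 genes these shares are not read as a trait of the group. Psma8, the testis subunit on chromosome 18 (14706135 to 14762301), had 242 bp at its lower coordinate in the knockout list, on 1 line, and none in the control list, whose nearest interval was 20605 bp away. Psmb10, an immunoproteasome subunit, had one of 393 bp in the knockout list (chromosome 8, 105937061 to 105937453) and none in the control list. That peak began 939 bp inside the gene, so it did not cover the start and was not counted with a window of 500 bp. The other immunoproteasome genes, Psmb8 and Psmb9 on chromosome 17, and the thymus gene Psmb11 had no gene-end peak in either list. The Psma8 peak was the second narrowest of the members in the knockout list, and asking for a width of 300 bp or for a second line removed it.

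**Figure D2:**
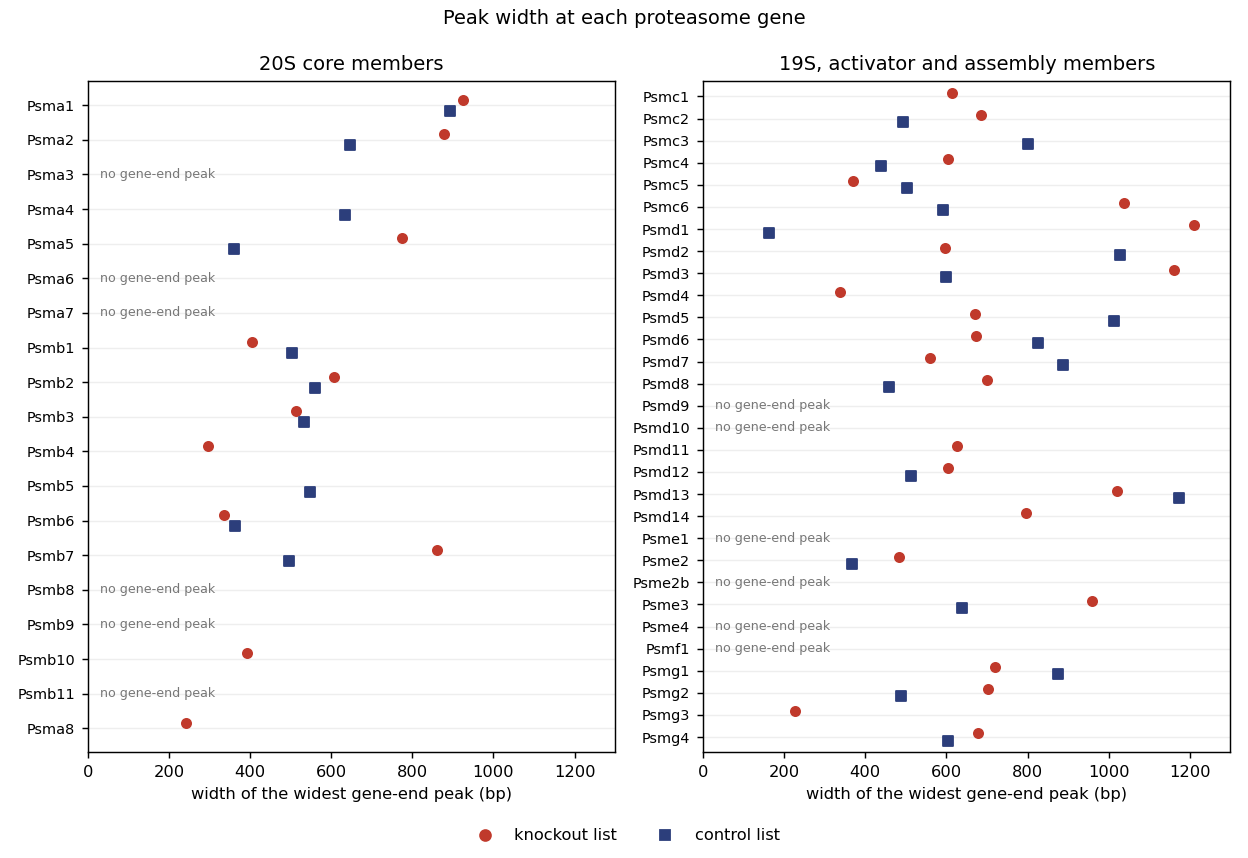
Width in bp of the widest gene-end peak of each of the 49 proteasome genes, in the knockout list (circles, upper mark in a row) and the control list (squares, lower mark). Rows with 1 mark are genes in 1 list alone, such as Psmb5 and Psma8; knockout widths run between 228 and 1211 bp and control widths between 162 and 1173 bp.

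All 6 ATPase genes of the regulatory particle had a gene-end peak (against 43.0% of all protein-coding genes). Of these, 4 were in both lists (66.7%, against 28.6%). Psmc2 had 686 bp in the knockout list and 492 bp in the control list, and Psmc4 had 603 bp in the knockout list and 438 bp in the control list. Psmc6 had 1037 bp in the knockout list and 592 bp in the control list, whereas Psmc5 had 369 bp in the knockout list and 502 bp in the control list. Psmc1 was in the knockout list alone with 613 bp (chromosome 12, 100109989 to 100110601), and Psmc3 in the control list alone with 800 bp (chromosome 2, 91053914 to 91054713).

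Of the 14 non-ATPase genes, 9 were in both lists (64.3%, against 28.6% of all protein-coding genes) and 2 in neither (14.3%, against 57.0%). A further 3 were in the knockout list alone (21.4%, against 9.81%). The 3 were Psmd4, a receptor for ubiquitin chains (338 bp, chromosome 3, 95042411 to 95042748), Psmd11, a lid subunit (627 bp, chromosome 11, 80428506 to 80429132), and Psmd14, the deubiquitinase that strips ubiquitin from the substrate (797 bp, chromosome 2, 61711290 to 61712086). Their peaks covered the RefSeq start in each case, and the nearest control interval lay between 11175 and 16673 bp away for Psmd14 and Psmd4, and 10979 bp away for Psmd11. Psmd9 and Psmd10, which encode chaperones of 19S assembly, were in neither list. Psmd10 is the one member on the X chromosome. The third such chaperone gene, Psmd5, had 670 bp in the knockout list and 1013 bp in the control list.

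The most unequal widths of any member were those of a non-ATPase gene. Psmd1, a scaffold subunit of the 19S base, spanned 1211 bp in the knockout list (chromosome 1, 86064032 to 86065242) and 162 bp in the control list (86064255 to 86064416). The knockout interval was listed 3 times and covered the gene start, while the control interval was listed once and ended 203 bp before it. The ratio of 7.48 was the highest of the 5952 genes with overlapping widest peaks, and with intervals under 300 bp left out Psmd1 was in the knockout list alone. Psmd2, the other scaffold of the base, went the opposite way, with 597 bp on 1 line in the knockout list and 1029 bp on 5 lines in the control list. Among the lid genes, Psmd3 had 1160 bp and Psmd8 701 bp in the knockout list, against 599 bp and 458 bp in the control list, and Psmd7 had 560 bp in the knockout list and 887 bp in the control list. The lid gene Psmd13 had the widest control peak of any member, with 1020 bp in the knockout list and 1173 bp in the control list, over a gene end shared with Sirt3. The lid genes Psmd6 (674 bp in the knockout list and 826 bp in the control list) and Psmd12 (603 bp in the knockout list and 513 bp in the control list) differed less in width than Psmd3, Psmd7 and Psmd8.

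Of the 6 activator and inhibitor genes 2 were listed (33.3%, against 43.0% of all protein-coding genes), and of the 4 chaperone genes of core assembly 4 were. Neither share is read as a trait of so small a group. Psme3, the nuclear activator PA28 gamma, had 960 bp in the knockout list and 639 bp in the control list. Psme2, a subunit of the interferon-induced activator, had 482 bp in the knockout list and 368 bp in the control list, but these 2 peaks did not overlap. The knockout peak covered the start of Psme2, the control peak lay 670 bp before it, and both were also within reach of Rnf31. Psme1, Psme2b and Psme4 had none in either list. PSME4 (PA200) is known in mouse for its part in degrading acetylated histones during spermatogenesis. The inhibitor gene Psmf1 had no gene-end peak, and a control peak of 496 bp lay 166 bp inside its RefSeq start, with none near it in the knockout list. Psmg1 had 720 bp in the knockout list and 874 bp in the control list. Psmg2 had 703 bp in the knockout list and 488 bp in the control list. Each had a further, narrower knockout interval in the window, of 316 bp at Psmg1 and 336 bp at Psmg2, both on 1 line. The control list had no second interval at either gene. Psmg4 had 677 bp in the knockout list and 603 bp in the control list. Psmg3 was in the knockout list alone with 228 bp (chromosome 5, 139826833 to 139827060), the narrowest knockout peak of the members.

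At shared members the same site was listed in both genotypes. The peaks overlapped at 25 of the 26 members in both lists, against 97.3% of all genes in both lists, and Psme2 was the exception. Over these 25 genes the knockout peak was wider at 15 and narrower at 10 (60.0% wider, against 53.1% of all genes), and the median of the log2 width ratio (knockout over control) was 0.17 (range -0.79 to 2.90). The median over all 5952 genes was 0.04 (quartiles -0.28 and 0.39). The knockout peak was at least 1.5 times wider at 7 members (28.0%, against 16.6% of all genes). They were Psmd1, Psma5, Psmd3, Psmc6, Psmb7, Psmd8 and Psme3. It was at least 1.5 times narrower at 3 (12.0%, against 10.8%), namely Psmd2, Psmd7 and Psmd5. Width is no measure of how open a site is, and the peaks of both lists have no height.

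**Figure D3:**
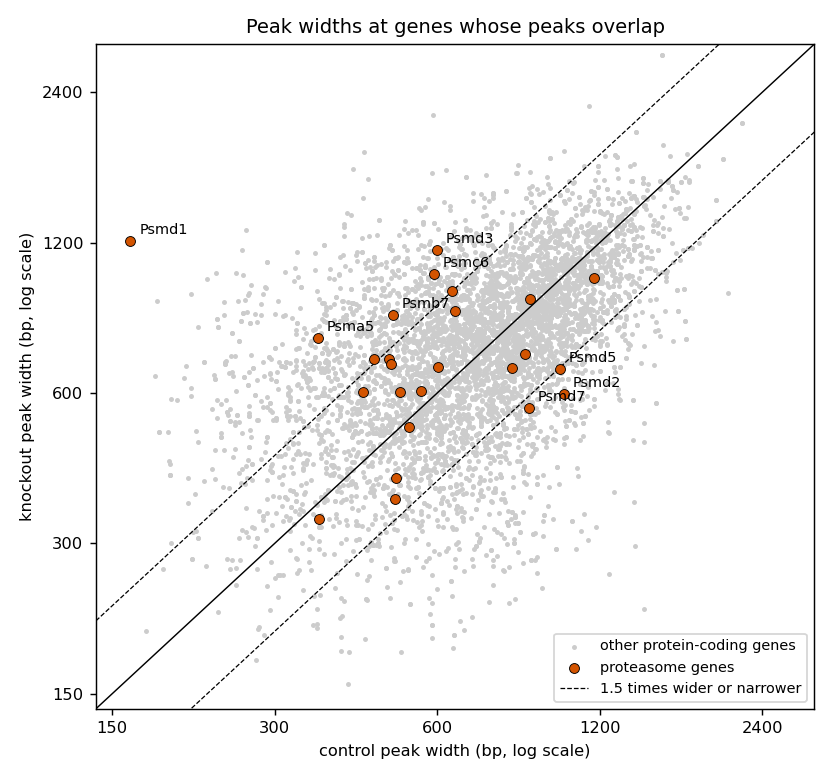
Knockout peak width against control peak width, both in bp on log scales, for the 5952 protein-coding genes whose widest gene-end peaks overlap; the 25 proteasome genes are the larger points, the solid line marks equal width and the dashed lines a ratio of 1.5. Psmd1 lies far above the rest of the members, with 7 members on or above the upper dashed line and 3 below the lower one.

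Where RefSeq gives a start, most peaks of the members lay on it. A start was at hand for 41 members. Of those with a gene-end peak, 25 of 27 in the knockout list and 20 of 22 in the control list had a peak that covered a start (92.6% and 90.9%, against 82.9% and 81.4% of all such genes). The exceptions were Psmb4 and Psmb10 in the knockout list, and Psmd1 and Psme2 in the control list. Counted within 1 kb of a RefSeq start only, 22 of the 41 members were in both lists (against 30.7% of 17491 genes), 7 were in the knockout list alone (against 9.4%) and 3 in the control list alone (against 4.28%). Psma3 and Psma6 then stood in both lists and Psmf1 in the control list alone.

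**Figure D4:**
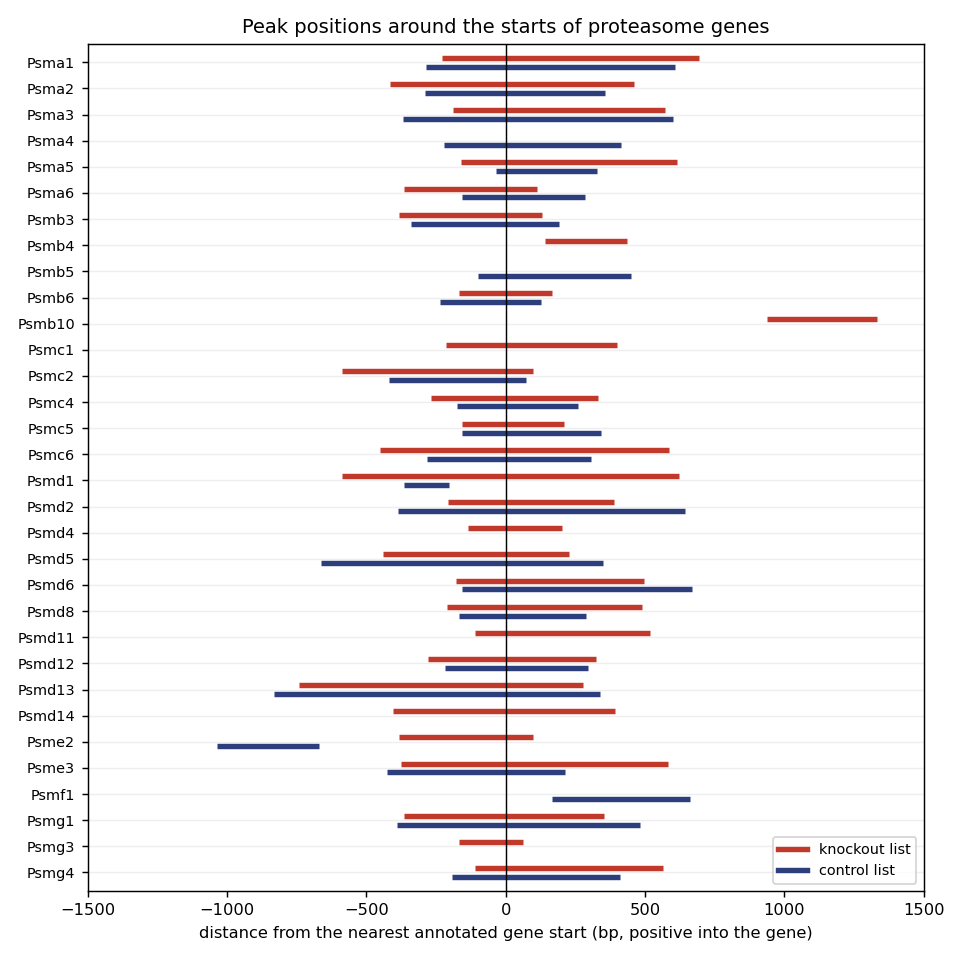
Extent of peaks relative to the nearest annotated gene start (bp, positive into the gene) for proteasome genes with a RefSeq start and a peak within 1 kb of it, with the knockout list above the control list in each row. Where a gene has a gene-end peak there, only gene-end peaks are drawn. The knockout peak of 529 bp at the second start of Psmc2 is therefore not shown. Most peaks cross the start at 0, and the exceptions are Psmb4 and Psmb10 in the knockout list and Psmd1, Psme2 and Psmf1 in the control list.

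Some gene ends of the proteasome genes lie so close to another gene that a peak lies within reach of both. This was so for 9 of the 34 members in the knockout list and 10 of the 29 in the control list (26.5% and 34.5%, against 29.9% and 31.5% of all listed genes). In both lists the partners were Mrpl32 at Psma2, Pcgf2 at Psmb3, Dnajc2 at Psmc2, Ftsj3 at Psmc5 and Catsperg1 at Psmd8. Sirt3 at Psmd13, Rnf31 at Psme2, Brwd1 at Psmg1 and Cep76 at Psmg2 were the others. In the control list the peak of Psma4 was also shared, with Hykk and AY074887. Psma4 was therefore in the control list alone (635 bp on 3 lines, chromosome 9, 54950638 to 54951272) on a peak that may also belong to a neighbour. That peak covered the RefSeq start of Psma4, and the nearest knockout interval lay 23263 bp from the gene.

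The promoters of the genes listed in 1 genotype alone are printed here to show the sequence at the starts of the genes on which the lists differ. The peaks of Psmb4 and Psmb10 lay downstream of the start and outside the printed bases. Each is the 250 bases before the RefSeq start (GRCm38.p6, which has the primary chromosomes of mm10), 5' to 3' on the gene's strand, and Psma8 and Psmc3 are named only. Capitals mark matches on either strand to any of 6 motifs, TGACNNNGC (the core of the antioxidant response element, through which NFE2L1 is known to raise proteasome genes when the proteasome is inhibited), TGACGTCA (the cAMP response element), CCAAT, the consensus of nuclear respiratory factor 1, TAACNG (MYB) and TATAAA. The first 7 genes were listed in the knockout alone and the last 2 in the control alone.
Psmb4 (chr3:94886959-94887208, minus strand): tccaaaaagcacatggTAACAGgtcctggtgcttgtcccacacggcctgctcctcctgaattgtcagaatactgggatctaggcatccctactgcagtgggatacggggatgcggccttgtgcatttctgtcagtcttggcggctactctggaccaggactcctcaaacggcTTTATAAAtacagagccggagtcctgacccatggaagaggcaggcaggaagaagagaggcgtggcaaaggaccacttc
Psmb10 (chr8:105938393-105938642, minus strand): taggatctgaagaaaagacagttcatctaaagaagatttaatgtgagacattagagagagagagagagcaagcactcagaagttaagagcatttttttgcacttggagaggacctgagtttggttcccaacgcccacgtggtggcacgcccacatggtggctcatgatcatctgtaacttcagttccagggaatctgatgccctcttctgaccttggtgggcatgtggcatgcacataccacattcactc
Psmc1 (chr12:100109952-100110201, plus strand): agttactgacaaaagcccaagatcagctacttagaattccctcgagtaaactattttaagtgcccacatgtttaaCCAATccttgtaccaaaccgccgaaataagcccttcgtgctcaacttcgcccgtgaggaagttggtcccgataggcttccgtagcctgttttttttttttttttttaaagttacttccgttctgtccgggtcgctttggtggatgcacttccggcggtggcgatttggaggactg
Psmd4 (chr3:95042615-95042864, minus strand): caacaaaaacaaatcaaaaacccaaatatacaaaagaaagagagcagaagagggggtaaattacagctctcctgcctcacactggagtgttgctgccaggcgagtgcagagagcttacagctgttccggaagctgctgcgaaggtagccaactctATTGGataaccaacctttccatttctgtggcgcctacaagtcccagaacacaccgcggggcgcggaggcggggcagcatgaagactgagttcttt
Psmd11 (chr11:80428365-80428614, plus strand): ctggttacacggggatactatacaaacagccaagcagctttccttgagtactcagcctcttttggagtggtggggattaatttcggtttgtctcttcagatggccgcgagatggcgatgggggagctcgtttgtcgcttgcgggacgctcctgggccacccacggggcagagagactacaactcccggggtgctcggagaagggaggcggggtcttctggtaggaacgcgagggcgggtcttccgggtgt
Psmd14 (chr2:61711444-61711693, plus strand): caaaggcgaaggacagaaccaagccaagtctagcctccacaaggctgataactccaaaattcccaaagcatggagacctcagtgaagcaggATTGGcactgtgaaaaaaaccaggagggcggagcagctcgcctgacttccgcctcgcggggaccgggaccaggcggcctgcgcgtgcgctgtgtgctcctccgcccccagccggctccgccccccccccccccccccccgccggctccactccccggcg
Psmg3 (chr5:139826895-139827144, minus strand): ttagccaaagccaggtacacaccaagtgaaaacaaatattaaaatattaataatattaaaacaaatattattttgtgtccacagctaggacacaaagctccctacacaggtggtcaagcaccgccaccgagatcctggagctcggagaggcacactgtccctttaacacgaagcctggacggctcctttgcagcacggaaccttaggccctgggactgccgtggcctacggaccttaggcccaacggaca
Psma4 (chr9:54950609-54950858, plus strand): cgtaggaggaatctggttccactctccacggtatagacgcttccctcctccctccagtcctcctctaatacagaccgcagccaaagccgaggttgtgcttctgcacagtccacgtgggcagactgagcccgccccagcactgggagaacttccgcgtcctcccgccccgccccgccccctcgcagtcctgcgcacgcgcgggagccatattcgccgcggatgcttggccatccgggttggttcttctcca
Psmb5 (chr14:54617996-54618245, minus strand): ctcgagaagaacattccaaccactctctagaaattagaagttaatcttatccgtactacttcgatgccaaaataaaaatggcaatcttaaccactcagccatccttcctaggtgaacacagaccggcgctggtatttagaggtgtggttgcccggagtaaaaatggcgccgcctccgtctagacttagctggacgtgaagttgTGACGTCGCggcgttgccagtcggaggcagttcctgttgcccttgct

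The following 3 promoters belong to members in both lists with the widest peaks among those with a RefSeq start. At Psmd1 the control interval covered only the upstream part of this window, whereas the knockout interval covered all of it.
Psmd1 (chr1:86064369-86064618, plus strand): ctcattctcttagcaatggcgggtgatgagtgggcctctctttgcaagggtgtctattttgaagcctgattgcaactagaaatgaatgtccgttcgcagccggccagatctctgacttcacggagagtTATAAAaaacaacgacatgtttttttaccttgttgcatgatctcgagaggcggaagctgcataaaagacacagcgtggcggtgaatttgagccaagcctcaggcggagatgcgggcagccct
Psmd13 (chr7:140882144-140882393, plus strand): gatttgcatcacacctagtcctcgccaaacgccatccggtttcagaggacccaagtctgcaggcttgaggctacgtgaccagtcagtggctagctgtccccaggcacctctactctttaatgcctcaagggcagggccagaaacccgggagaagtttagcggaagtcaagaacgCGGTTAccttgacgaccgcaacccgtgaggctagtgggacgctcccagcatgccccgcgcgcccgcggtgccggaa
Psmc6 (chr14:45329574-45329823, plus strand): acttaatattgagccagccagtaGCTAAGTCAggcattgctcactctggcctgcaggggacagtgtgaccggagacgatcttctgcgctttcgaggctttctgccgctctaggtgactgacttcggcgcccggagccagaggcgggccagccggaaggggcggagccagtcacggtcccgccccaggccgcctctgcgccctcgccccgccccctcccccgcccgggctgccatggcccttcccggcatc

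The shares of promoters with each motif are given as a description and were not tested. In the full windows of 300 bases, which add 50 bases from the start on, TGACNNNGC was in 6 of 41 members (14.6%) and in 14.8% of the 17491 protein-coding genes with a window. The 6 were Psmb5, Psmb6, Psmc6, Psmd9, Psmd12 and Psme4, a share near that of all genes. Psmb7 had no window. In the printed sequences it is the run TGACGTCGC of Psmb5 and, on the opposite strand, the run in capitals of Psmc6. CCAAT was in 14 members (34.1%, against 42.3% of genes), TAACNG in 7 (17.1%, against 23.6%), TATAAA in 4 (9.76%, against 14.8%) and the consensus of nuclear respiratory factor 1 in 2, Psma2 and Psmg1 (4.88%, against 1.47%). TGACGTCA was in none (against 2.54%). No match overlapped a match to a different motif, and a match in a sequence does not show that a factor binds there.

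Base composition was read from the same windows, taking the first one where a gene has several. The median GC content was 59.2% for the 20 members in both lists, 51.3% for the 7 in the knockout list alone, 57.5% for the 2 in the control list alone and 55.0% for the 12 in neither. Over all genes these medians were 62.7%, 59.7%, 58.3% and 50.7%. Unlisted members reached up to 77.0% GC, the value of Psma7, which was the GC-richest window of any member. The 7 members listed in the knockout alone had a median of 12 CG dinucleotides, against 20.5 for those in both lists. Members in the control list alone had 21.5 and those in neither 11.5. Over all genes the medians were 18 for the knockout list alone, 24 for both lists, 16 for the control list alone and 5 for neither. The part of base composition in the listing was not tested.

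Genes that work in or with the proteasome, but whose symbols fall outside the rule for members, were in most cases listed in both genotypes. Of 36 such genes, 35 matched the gene table. Of these, 24 were in both lists (68.6%, against 28.6% of all genes). A further 3 were in the knockout list alone (8.57%, against 9.81%), 1 was in the control list alone (2.86%, against 4.66%) and 7 had none. In both lists were Nfe2l1, the transcription factor that restores proteasome levels (1152 bp in the knockout list and 1166 bp in the control list), and Ddi2 and Ngly1, which activate it. Pomp, the maturation chaperone of the core, had 517 bp in the knockout list and 846 bp in the control list. Adrm1, a ubiquitin receptor, had 1178 bp in the knockout list and 831 bp in the control list, and Vcp, the segregase that hands over substrates, had 1255 bp in the knockout list and 878 bp in the control list. Of the 2 deubiquitinases that bind the 19S particle reversibly, Uchl5 was in both lists, and Usp14 had none in the knockout list and 683 bp in the control list. Ubqln1, which encodes a ubiquitin shuttle (908 bp), and Fbxo7 (974 bp) were among those in the knockout list alone. Tap1 and Tap2, which carry immunoproteasome products into the endoplasmic reticulum and lie beside Psmb8 and Psmb9, and Irf1, which induces them, were in neither. Ecpas, Ddi1, Uba1 and Ubqln2 were also in neither.

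How the members divide rests partly on peaks with a single line. Many intervals stand on several lines of the lists, and with only those on at least 2 lines 12 members were in both lists (against 15.9% of all genes), 9 in the knockout list alone (against 7.71%) and 7 in the control list alone (against 6.55%). Psmd4, Psmc1 and Psmd11 stayed in the knockout list alone under every alternative tried, and Psma4 and Psmb5 in the control list alone. The other 5 members listed in the knockout alone, namely Psma8, Psmb4, Psmb10, Psmd14 and Psmg3, and Psmc3 in the control alone, each left their class under at least that setting.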

How the data were processed

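Nuclei of pachytene cells gave 4 ATAC-seq libraries, per the labels. The submitters' processing notes name MACS2 2.2.4, Picard 2.20.7, Bowtie2 2.3.4.3 and cutadapt 2.5, with mm10. No source at hand states the peak threshold, any Tn5 shift, read filters, pooling of replicates or the exact read count of each library. Lists with 3 columns (chromosome, start and end) were deposited, and 1 per genotype was analysed. Intervals on several lines were counted once, which took 29656 lines to 21004 in the knockout list and 24167 to 15376 in the control list.

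Peaks were assigned to genes of a RefSeq table (GRCm38.p6) with Python 3.11.15, numpy 2.4.6 and pandas 2.3.3. The widest peak stood for a gene. Overlap meant at least 1 bp. The assignment was tested on simulated intervals at the window's edge and recovered 400 of 400 genes, and overlaps matched bedtools 2.31.1. Gene starts, strands and promoter sequences came from RefSeq, for 41 of the 49 members.

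The members and lists were chosen with earlier results of these data known. All members are accounted for. The rule named those in 1 list alone or in neither, those that changed class under an alternative, the 5 widest and 5 narrowest in both lists, and all catalytic, immunoproteasome and testis members. Any other gene was named with its values known. The alternatives were windows of 500 bp and 3 kb, RefSeq starts only, intervals on at least 2 lines, intervals of at least 300 bp, equal numbers of the widest intervals, joining within 200 bp, an overlap of 50% of both intervals and a gap of up to 500 bp. The other libraries were not analysed here.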

Additional observations from a re-analysis of the deposited data

How the results depend on the processing

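With only intervals on at least 2 lines, 12 of the 49 members had a peak in each list, 9 only in the knockout list, 7 only in the control list and 21 in no list, and the peaks overlapped at 11. Those 9 are not the same genes as the 8 with all intervals, since some members lost their control peak, such as Psma5 and Psmc6. The other alternatives left each count within 1.5 times its value (25 to 26 members in both lists of 49, and 22 of 41 with RefSeq starts only). In all, 24 members changed class under at least 1 alternative. The same count over all protein-coding genes is not given here, so it is not read as particular to proteasome genes. The median log2 width ratio was 0.11 to 0.17. At least 300 bp of width took Psmd1 out of the control list. No paired analysis was possible because there is 1 peak list per genotype and no test.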

Other observations

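Inside the proteasome genes, away from the gene-end window, 8 intervals (in 6 genes) were in the knockout list alone and 2 (in 2 genes) in the control list alone, at Psmd12 and near the start of Psmf1. The same counts over all genes are not given here, and the knockout list is the longer one (21004 intervals against 15376). These counts are therefore not read as a difference particular to proteasome genes. Psmc2 has a second RefSeq start at 21786747 on chromosome 5, which a knockout interval of 529 bp on 2 lines covered (21786406 to 21786934), and the control list had none there. Further knockout intervals lay within Psmd1 (219 bp and 274 bp), Psmb3 (235 bp), Psmd9 (229 bp) and Psmd14 (213 bp), each on 1 line. Psmf1 held 2 in the knockout list (284 bp and 246 bp). Psmd12 held a control interval of 564 bp on 1 line, 14959 bp from its start.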
